A study of Caenorhabditis elegans with 2 samples.

Results

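The mitochondrial ribosome genes of Caenorhabditis elegans are the nuclear genes whose products make up the ribosome inside mitochondria. They were taken here as every protein-coding gene whose symbol is mrpl- (large subunit) or mrps- (small subunit) followed by a number, with any suffix, which gave 71 of 19973 protein-coding genes: 42 mrpl genes and 29 mrps genes. K11D2.4 encodes a C2H2-type zinc finger protein, and its binding sites were mapped by chromatin immunoprecipitation followed by sequencing (ChIP-seq) of the tagged protein. There was 1 group, K11D2.4-eGFP, of 2 biological replicates: whole young adult worms of strain RW12320, aged 62 hours after synchronisation as starved L1 larvae, in which K11D2.4 carried a TY1::EGFP::3xFLAG tag inserted at its own locus by CRISPR. The precipitation used an antibody against GFP. No untagged, wild-type or input library was analysed here, so there is no background sample, and the main counts are set beside the same counts over all protein-coding genes. Whole worms were used, so a peak cannot be assigned to a tissue.

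Mitochondria keep a small genome that encodes a handful of proteins of the respiratory chain and ATP synthase, and a separate ribosome of bacterial ancestry translates them inside the organelle. Almost all of that ribosome's proteins are encoded in the nucleus, made in the cytosol and imported. Part of the set has counterparts in the bacterial ribosome (names such as uL23m or bL28m), and part is specific to mitochondria (mL45, mS35). In this worm, lowered expression of mitochondrial ribosomal proteins, mrps-5 the best known of them, is known to unbalance nuclear and mitochondrial subunits of the respiratory chain, to induce the mitochondrial unfolded protein response and to extend lifespan. RefSeq names a ribosomal protein as the product of 70 of the 71 genes. The exception is mrps-27, whose product is given there as an Ig-like domain-containing protein, and some symbols and products name different subunits: RefSeq gives a small subunit uS10 domain for mrpl-48 and the large subunit protein uL3m for mrps-18C.

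A peak of the main list, the authors' pooled conservative list of 1927 peaks kept at a threshold of the irreproducible discovery rate (IDR, which scores whether peaks rank alike when called again), had its summit in the promoter of 7 mitochondrial ribosome genes. They were mrpl-28, mrpl-45, mrpl-12, mrpl-23 and mrpl-55 of the large subunit and mrps-7 and mrps-35 of the small subunit. The promoter of a gene was counted as the 1000 bp before and the 200 bp after each of its transcript starts. The 7 are 9.86% of the 71 genes, against 5.77% of all protein-coding genes, and the other 64 had no main peak in the promoter. With 1 group and no control samples this difference has no test, and the members' counts are small.

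The sequences at 6 of these 7 sites (that of mrpl-23 is not shown) and at mrps-28 are printed so that the places where the tagged protein was mapped can be read directly. Each is the stretch of 101 bases centred on the pooled summit, on the strand of the mitochondrial ribosome gene and 5′ to 3′, from the RefSeq genome sequence of WBcel235 (ce11). They lie at chrII:156042-156142 (minus strand) for mrpl-28, chrIII:1202301-1202401 (minus) for mrpl-45, chrIII:10707148-10707248 (plus) for mrpl-12, chrIV:443760-443860 (plus) for mrpl-55, chrIV:14767847-14767947 (minus) for mrps-7 and chrV:18981185-18981285 (plus) for mrps-35. The last one printed, for mrps-28 at chrV:19643187-19643287 (plus), belongs to the peak with the highest signal among these genes in both replicates, whose pooled summit fell just outside the promoter. Capitals mark the words CGCAAAC (mrpl-45 and mrpl-12) and CGCAGA (mrps-7), and in mrps-28 the reverse complement of the B box of genes transcribed by RNA polymerase III.
mrpl-28: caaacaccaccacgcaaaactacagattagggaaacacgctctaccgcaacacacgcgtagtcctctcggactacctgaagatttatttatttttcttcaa
mrpl-45: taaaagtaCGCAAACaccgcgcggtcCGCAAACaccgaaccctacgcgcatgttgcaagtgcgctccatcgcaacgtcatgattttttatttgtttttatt
mrpl-12: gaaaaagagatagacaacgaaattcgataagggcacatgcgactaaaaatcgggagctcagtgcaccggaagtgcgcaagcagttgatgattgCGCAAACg
mrpl-55: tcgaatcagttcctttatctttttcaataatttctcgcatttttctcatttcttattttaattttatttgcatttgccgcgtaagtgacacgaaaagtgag
mrps-7: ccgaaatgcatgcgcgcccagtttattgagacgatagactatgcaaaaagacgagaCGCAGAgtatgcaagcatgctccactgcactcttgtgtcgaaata
mrps-35: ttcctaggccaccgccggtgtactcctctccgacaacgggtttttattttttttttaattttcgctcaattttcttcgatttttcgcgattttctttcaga
mrps-28: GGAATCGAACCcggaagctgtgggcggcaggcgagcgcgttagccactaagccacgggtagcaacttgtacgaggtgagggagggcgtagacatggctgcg

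None of the 3 motifs searched stood in all of the printed windows. CGCAGA, a word drawn from earlier results of these data and searched on both strands, lay within 50 bp of 1 of the 7 summits (14.3%), that of mrps-7, where its first base is 6 bp past the summit. The same word lay within 50 bp of 13.2% of all main summits, so the mitochondrial ribosome sites held it about as often as the rest of the list. Over whole promoters, 23 of the 71 genes (32.4%) and 27.5% of all protein-coding genes held it. CGCAAAC was searched on both strands after these sequences had been seen, so its count is a description with no test. It stood in 2 of the 7 windows (28.6%), 1 time in mrpl-12 and 2 times in mrpl-45, against 2.23% of the windows at all main summits. In windows of the same length centred at -175 bp from the start (minus meaning upstream, here and below), 4 of the 71 genes (5.63%) and 1.14% of all protein-coding genes held CGCAAAC. The 2 words share their first 4 letters and overlap nowhere in these windows. Over the central 100 bp the median GC share was 47% at the 7 member peaks, against 48% at all main peaks. In the flanks 200 to 300 bp away the median was higher at the member peaks, 38.5% against 35.5%. The central share exceeded that of the flanks at 6 of 7 member peaks (85.7%), against 85.2% of all main peaks.

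The large-subunit genes with a main peak encode proteins of different ancestry. Their peaks also lay at different distances from the start, and the distances did not sort by ancestry. mrpl-28 (II:154881-156009, minus strand) encodes bL28m, a protein with a bacterial counterpart. Its signal, the authors' own peak height on a scale not given in the sources used here, was 151 in the main list (rank 439 of 1927), with the summit at -83 bp from the start. In the replicates' ranked lists the signal at mrpl-28 was 87.3 (replicate 1) and 71.7 (replicate 2), above 96.8% and 95.3% of the genes with a ranked promoter peak. No other protein-coding gene had this peak in its promoter. Signals of the pooled list and of a single replicate are on different footings and were not compared with each other.

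mrpl-45 (III:1196389-1202008, minus) encodes mL45, a protein of the mitochondrial type that has no bacterial counterpart. The main signal was 137 (rank 520) with the summit at -343 bp from the start, and the replicates gave 79.8 (replicate 1) and 58.8 (replicate 2). The peak is also in the promoter of the divergent gene Y119D3B.12, a Luc7-like protein, which starts 538 bp away and is the nearer of the pair, with the summit at -195 bp from its start. mrpl-12 (III:10707761-10708521, plus) is named for the protein of the ribosomal stalk that contacts translation factors in bacteria. Its main signal was 136 (rank 532) and its summit lay at -563 bp. The replicates gave 74.8 (replicate 1) and 67.0 (replicate 2). That summit is closer to the divergent genes Y39A1A.22, a homologue of the phosphate exporter XPR1 (summit at -170 bp from its start), and Y39A1A.21, annotated as a methyltransferase of ATP synthase subunit C (-176 bp). In both cases the position alone does not tell which gene the site belongs to.

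mrpl-55 (IV:443985-444786, plus) had the lowest main signal among the members, 69.3 (rank 1674), with the summit at -175 bp and no other gene sharing it. Its replicate signals were 34.0 (replicate 1) and 41.3 (replicate 2), and its peak stood in the own thresholded list of replicate 2 alone. The replicates' summits at mrpl-55 were 109 bp apart, the farthest of the 7.

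In the small subunit, mrps-7 (IV:14766773-14767730, minus) encodes uS7m, counterpart of a protein that organises the head of the bacterial small subunit. Its main signal was 128 (rank 608) at -167 bp, and the replicate signals were 74.2 (replicate 1) and 58.3 (replicate 2), with the replicates' summits 1 bp apart. The divergent gene Y57G11C.3, a putative 6-phosphogluconolactonase of the pentose phosphate pathway, starts 471 bp away and shares the peak, at -304 bp from its own start. mrps-35 (V:18981306-18985865, plus) encodes mS35, a protein of the mitochondrial type. Its main signal was 96.4 (rank 1048) at -71 bp, and its replicate signals were 42.0 (replicate 1) and 52.9 (replicate 2). The divergent gene sws-1 encodes a SWIM-type domain protein. Its start nearest to the summit is 156 bp from that of mrps-35, with the summit at -85 bp from it. The gene has other annotated starts, and the summit falls in an untranslated exon of sws-1. The peak at mrps-35 was in neither replicate's own thresholded list.

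**Figure D1:**
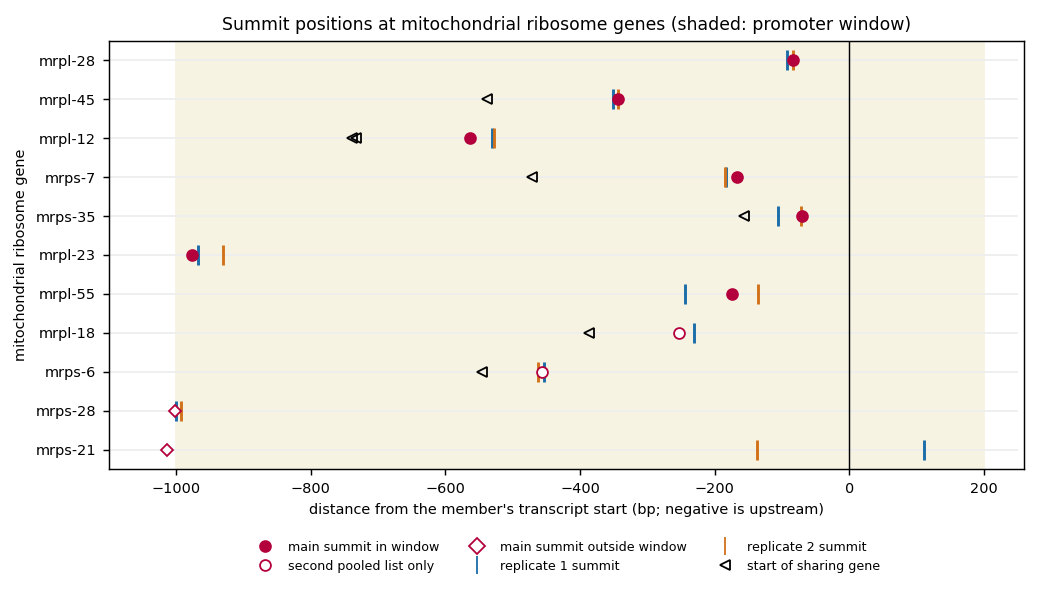
Position of each peak summit on the horizontal axis, in bp from the transcript start of the mitochondrial ribosome gene named on the vertical axis (negative is upstream; the shaded band is the promoter window). Filled circles are main summits inside the window, open circles summits of the second pooled list alone, diamonds main summits outside the window, coloured ticks the summits of each replicate, and triangles the starts of genes sharing the peak; the summits of mrps-28 gather at the edge of the window, at -1002 bp in the pooled list and at -1000 and -992 bp in the replicates.

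All 7 member summits lay upstream of the start, at a median of -175 bp and between -976 and -71 bp, as the plot of summit positions shows. Over the 1152 protein-coding genes with a main promoter peak the median was -264 bp and 91.7% were upstream. The median main signal was 128 over the 7 members (range 69.3 to 151), against 116 over the 1152 genes, whose highest value was 1396. Members ranked between 439 and 1674 in the main list. Of the 7 peaks, 4 were shared with a divergent gene (mrpl-12, mrpl-45, mrps-7 and mrps-35), and mrpl-28, mrpl-23 and mrpl-55 were the only protein-coding genes with their peak in the promoter. The main list had 996 promoter summits for the 1152 genes, so some peaks at other genes were shared too. No share over all genes is set beside the 4 of 7, so whether that count is usual cannot be said.

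Peaks at mrps-28 and mrpl-23 lay next to genes of small nucleolar RNAs (snoRNAs), which guide the chemical modification of ribosomal RNA, and far from the members' own starts. mrps-28 (V:19644239-19645676, plus) had the highest signal of all 71 genes in both replicates, 91.6 (replicate 1) and 82.8 (replicate 2), above 97.1% and 96.5% of the genes with a ranked promoter peak. It was in both own thresholded lists. The pooled summit there (signal 167, rank 354) lay at -1002 bp, 2 bp beyond the promoter window, so mrps-28 is not among the 7, although the replicates' summits at -1000 and -992 bp were inside. That pooled summit is in an intron of Y43F8C.7, annotated as a subunit of the endoplasmic reticulum membrane protein complex, and 50 bp upstream of the start of the snoRNA gene Y43F8C.22 (V:19643050-19643187, minus). On the strand of that snoRNA, the B box match in the printed mrps-28 sequence ends at the first annotated base, so nearly all of it lies upstream of the annotated gene. A B box match was in 0 of the 7 windows at the main peaks, in 2.59% of the windows at all main summits, and in 0.0701% of all protein-coding genes' windows.

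mrpl-23 (I:6211270-6211885, minus) encodes uL23m, counterpart of a bacterial protein at the exit of the ribosomal tunnel. Its main signal was 93.5 (rank 1101), and the replicates gave 45.4 (replicate 1) and 35.4 (replicate 2). The summit lay at -976 bp from the start, in an intron of the neighbouring gene fars-1, which encodes a subunit of phenylalanyl-tRNA synthetase, and 37 bp upstream of the start of the snoRNA gene T08B2.13 (I:6212696-6212824, minus). The peak at mrpl-23 was in neither replicate's own thresholded list. Which of the neighbouring genes the tagged protein acts on at these sites was not tested.

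The lists made in other ways named partly different members. The second pooled thresholded list had a promoter peak at 9 of the 71 genes (12.7%), against 5.96% of all protein-coding genes. It held the 7 above together with mrpl-18 (signal 73.6, at -253 bp, shared with the divergent gene phka-1, a regulatory subunit of phosphorylase kinase) and mrps-6 (signal 69.9, at -457 bp, shared with rpn-8, a proteasome subunit). Replicate 1's own list had 5 members (7.04%, against 3.39% of all genes): mrpl-12, mrpl-28, mrpl-45, mrps-7 and mrps-28. Replicate 2's own list had 7 members (9.86%, against 4.07%), the same 5 with mrpl-55 and mrpl-15 (signal 43.7). The 5 of replicate 1 were thus in both own lists, which is 7.04% of the members, against 2.68% of all genes. The lowest main signals among the 7 members were those of mrpl-55 (69.3, rank 1674), mrpl-23 (93.5, rank 1101) and mrps-35 (96.4, rank 1048), the last of these near the median of 101 over all 1927 main peaks. The highest ranked signals among members outside it were those of mrps-28, of mrps-6 with 25.9 (replicate 1) and 47.8 (replicate 2), and of mrpl-18 with 45.9 in replicate 1 and no ranked promoter peak in replicate 2.

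**Figure D2:**
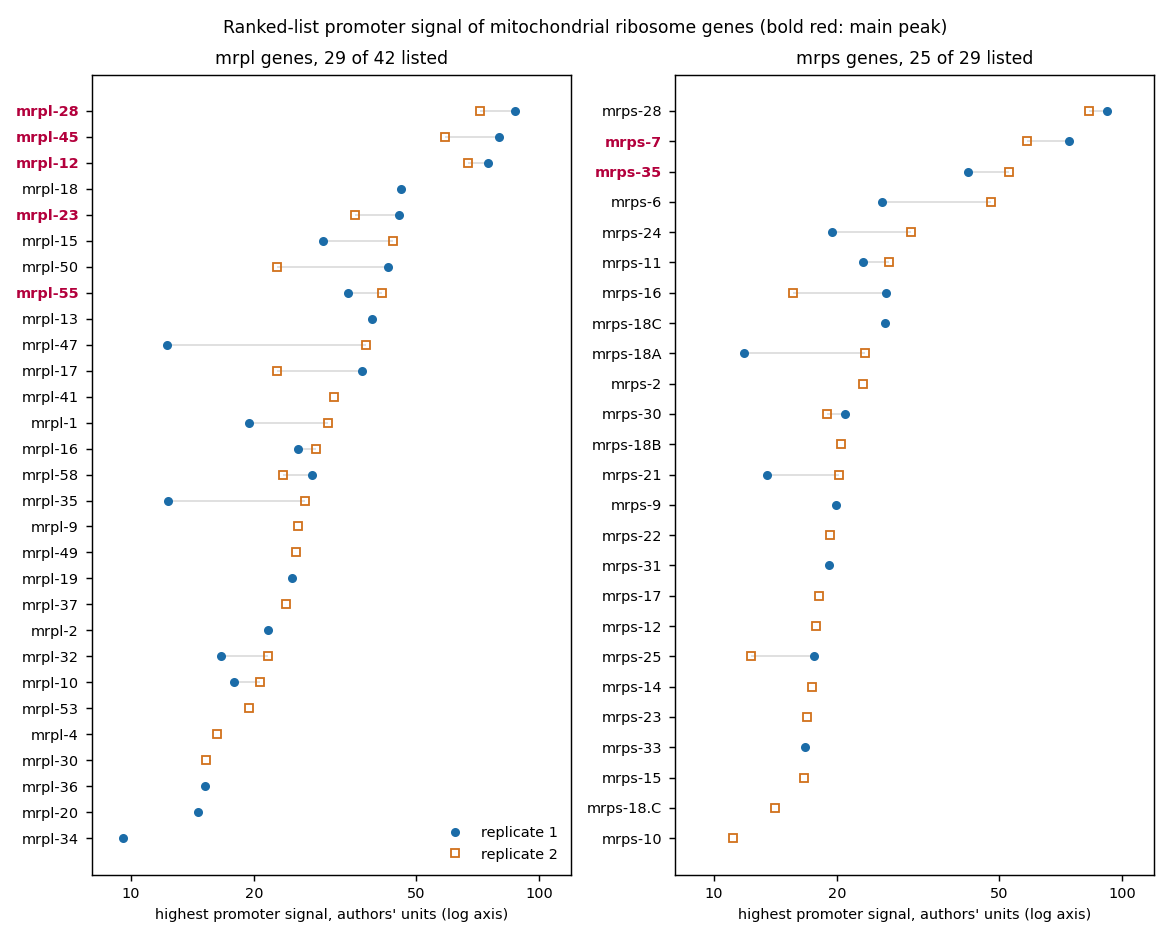
Highest promoter signal (horizontal log axis, authors' units) of each mitochondrial ribosome gene in the ranked list of replicate 1 (filled circles) and replicate 2 (open squares), with the large subunit on the left and the small subunit on the right, 1 gene per row; genes in bold red had a main peak. mrps-28 stands at the top with 91.6 and 82.8, most genes lie near the medians of 24.8 (replicate 1) and 23.5 (replicate 2), and the 17 genes with no ranked promoter peak in either replicate are not drawn.

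The ranked lists, which hold 41734 (replicate 1) and 42705 (replicate 2) peaks that mostly did not pass a threshold, placed weaker signal at many more of these genes. A ranked peak lay in the promoter of 37 members in replicate 1 (52.1%, against 45.0% of all protein-coding genes) and of 43 members in replicate 2 (60.6%, against 46.2%). It did so in both replicates for 26 members (36.6%, against 30.4%). About 1 in 2 of all genes was listed in this way, so a ranked peak alone says little about a gene. Among the genes listed, the median percentile of the members by signal was 59.7 in replicate 1 and 59.3 in replicate 2, where 50 is the middle of all listed genes. The 10% of listed genes with the highest signal held 5 of the 37 members (13.5%) in replicate 1 and 7 of the 43 (16.3%) in replicate 2. The plot of ranked signals shows mrpl-28, mrpl-45, mrpl-12, mrps-28 and mrps-7 at the top in both replicates.

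Among members with no main peak, the highest mean percentiles over the replicates that listed them were those of mrps-28 (96.8), mrpl-18 (89.9), mrpl-13 (86.1), mrpl-15 (81.2) and mrpl-41 (78.3). mrpl-13 was listed in replicate 1 alone, with a signal of 39.0, and mrpl-41 in replicate 2 alone, with 31.4. The lowest were mrpl-34 with 9.57 in replicate 1 and none in replicate 2, mrps-10 with none in replicate 1 and 11.1 in replicate 2, mrpl-20 with 14.6 and mrpl-36 with 15.2 in replicate 1 alone, and mrps-18.C with 14.1 in replicate 2 alone. mrpl-1 and mrps-24, which encode proteins of different subunits and are transcribed away from each other, shared 1 ranked peak with signals of 19.4 (replicate 1) and 30.3 (replicate 2). No ranked promoter peak was listed in either replicate for 17 members. They were mrpl-11, mrpl-21, mrpl-22, mrpl-24, mrpl-38, mrpl-39, mrpl-40, mrpl-42, mrpl-44, mrpl-46, mrpl-48, mrpl-51, mrpl-54, mrps-5, mrps-26, mrps-27 and mrps-34. mrps-5 (V:12563487-12565801, plus), which encodes uS5m, is thus without a listed peak in its promoter at any rank. Of all 19973 protein-coding genes, 8984 were listed in replicate 1, 9236 in replicate 2 and 6065 in both. At least 1 replicate listed 2448 of the 3950 genes later in a same-strand run (defined below) and 9707 of the 16023 others. Among members it listed 22 of 30 and 32 of 41. The lack was thus less frequent among members than among all genes in both classes, which was not tested. The depth of the libraries is unknown here, so the absence of a listed peak does not show the absence of binding.

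The replicates' signals lay closer together at members with a main peak than at those without. Over the 26 members with a ranked peak in both, the log2 ratio of the signal of replicate 1 to that of replicate 2 had a median of -0.18 and an SD of 0.63, against an SD of 0.60 over the 6065 genes listed in both. The SD was 0.32 over the 7 members with a main peak and 0.69 over the 19 without. The main list was chosen for reproducible ranking, so part of that difference is built in. Across these 26 genes, which are not independent replicates, Pearson's r of the log2 signals was 0.73 and Spearman's rho 0.65, against 0.76 and 0.61 over all 6065 genes. The replicates' summits were within 50 bp of each other at 15 of the 26 members, and at 2251 of the 6065 genes. The largest ratio was at mrpl-47, with 12.2 (replicate 1) and 37.7 (replicate 2), a log2 ratio of -1.63.

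Subunit, numbering and chromosome were then compared within the 71 genes, with subunit taken from the symbol. A main peak stood at 5 of the 42 large-subunit genes (11.9%) and at 2 of the 29 small-subunit genes (6.90%), beside 5.77% of all protein-coding genes; the difference rests on few genes and was not tested. mrpl-48 and mrps-18C, whose symbols and products name different subunits, had no main peak. By number, it stood at 3 of the 29 genes numbered above the bacterial range, mrpl-47 left out (10.3%), and at 4 of the 42 others (9.52%). Numbering is not ancestry by product: RefSeq gives uS3m, a protein with a bacterial counterpart, for mrps-24, and mL43, of the mitochondrial type, for mrpl-34. The 17 genes with no ranked promoter peak were 13 of the 42 large-subunit and 4 of the 29 small-subunit genes. By number, they were 12 of the 29 genes above the bacterial range and 5 of the 42 others. As given above, members lacked a ranked peak less often than all protein-coding genes. These counts therefore do not show that genes above the bacterial range lack peaks more often than all genes do. The differences between classes were not tested. The genes lay on every autosome and none was on X. The 23 on III were the most, with a main peak at 2 (8.70%), against 7.80% of all genes of that chromosome. The 11 on IV also had 2, which is 18.2%, against 5.43% of all genes there.

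Many mitochondrial ribosome genes stand in closely spaced runs on 1 strand. In this worm such runs are often operons, in which a single promoter ahead of the first gene serves all of them. No operon annotation was used here, and a run was defined as neighbouring protein-coding genes on the same strand with gaps of at most 500 bp. By that rule 30 of the 71 genes (42.3%) were later genes of a run, against 19.8% of all protein-coding genes. A main promoter peak stood at 1 of these 30 (3.33%), against 4.23% of all later genes, and that gene is mrpl-23. It stood at 6 of the 41 that were first in a run or alone (14.6%), against 6.15% of all such genes. By kind, 4 of the 23 members standing alone (17.4%) and 2 of the 18 first members (11.1%) had one, against 5.32% and 10% of all genes of those kinds. The difference between places in a run was not tested.

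**Figure D3:**
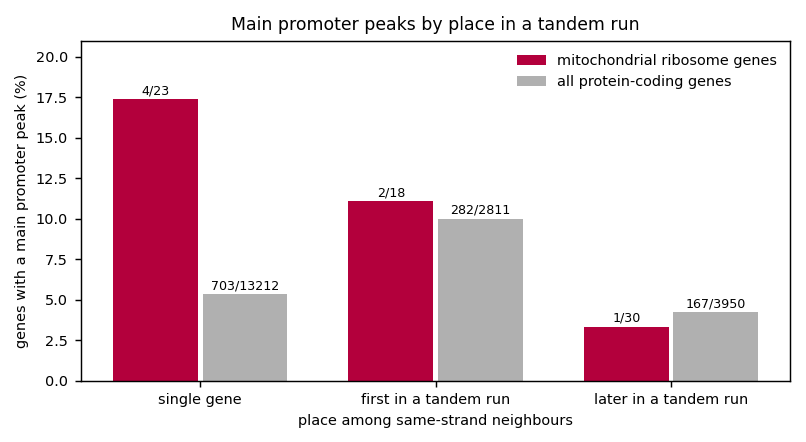
Share of genes with a main promoter peak (vertical axis, percent) by place among same-strand neighbours, for the 71 mitochondrial ribosome genes (red) and all protein-coding genes (grey), with the number of genes with a peak over the number in the class above each bar. The members' bars stand at 17.4%, 11.1% and 3.33%, and those of all genes at 5.32%, 10% and 4.23%.

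For 7 of the 30 later genes (23.3%) the first gene of the run had a main promoter peak, against 408 of 3950 later genes overall (10.3%). These first genes encode proteins of different kinds, some of them mitochondrial. nrde-2, a nuclear exosome regulator, leads the run of mrps-14 and had a signal of 437. rpn-3, a proteasome subunit ahead of mrpl-32, had 271. clsp-1, encoding Claspin, leads mrpl-54 with 217. F29B9.11, a cytochrome c oxidase subunit, leads mrps-21 with 155. tag-124, a putative tRNA pseudouridine synthase, leads mrpl-53 with 142. misc-1, a mitochondrial 2-oxoglutarate and malate carrier ahead of mrpl-41, had 128, and F21D5.7, a signal recognition particle protein ahead of mrps-33, also had 128. In 6 of the 7 runs a further gene shared that peak, and F21D5.7 was the exception. No share over all runs is set beside this count. The sharing genes were atad-3 (with nrde-2), hsp-110 (rpn-3), eef-2 (clsp-1), jmjd-1.2 (F29B9.11), E02H1.1 (tag-124) and B0432.10 (misc-1). From the first gene's own start the summits lay between -5 bp (tag-124) and -920 bp (nrde-2), with that of misc-1 at -803 bp. The lead peaks lay from 1014 bp (mrps-21) to 6335 bp (mrpl-53) upstream of the member's own start. Of the 30 later members, 22 had a ranked promoter peak of their own in at least 1 replicate, as did 32 of the other 41. Most genes were listed in this way: 2448 of all 3950 later genes and 9707 of the 16023 others.

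Genes that act with the mitochondrial ribosome were read the same way, beside the 5.77% of all protein-coding genes with a main promoter peak. Of mitochondrial translation factors and ribosome assembly genes, 1 of 9 had a main peak (11.1%): tufm-2, an elongation factor, with a signal of 77.5. That peak is shared with exoc-7, and tufm-2 had no ranked promoter peak in replicate 1. Each replicate's own list held 0 of the 9. dap-3, the small-subunit protein mS29 whose name leaves it outside the 71, had none, and its ranked signals were 18.5 (replicate 1) and 21.6 (replicate 2). Of the mitochondrial tRNA synthetases, 2 of 10 had one (20%), ears-2 with 159 (shared with uncp-18) and yars-2 with 90.0. Of the protein import genes, 4 of 22 had one (18.2%). They were ddp-1, which encodes a Tim8 homologue, with 356 (shared with ttc-7), and the receptor tomm-20 with 220. The others were the processing peptidase subunit mppb-1 with 122 and tin-9.1 (Tim9) with 90.4. Of the protein quality control genes, 2 of 15 had one (13.3%), the chaperones hsp-60 with 457 and hsp-6 with 128. None of the 6 mitochondrial DNA and RNA maintenance genes had one. Each of these lists is short: of 19, 15, 27 and 16 symbols given for the first 4 of them, 9, 10, 22 and 15 matched a gene.

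A smaller share of mitochondrial ribosome genes had a main peak than of the respiratory chain it serves or of the cytosolic ribosome; the differences were not tested. Its 9.86% compares with 12 of 44 genes of the respiratory chain and ATP synthase (27.3%), whose highest were cox-5A (604), atp-1 (297), cox-5B (272) and cox-6B (223). It compares with 33 of 78 genes of the cytosolic ribosome (42.3%), led by rpl-3 (1396), rpl-18A (868), rpl-15 (810.2) and rpl-35 (797). The replicates' own lists gave 7.04% (replicate 1) and 9.86% (replicate 2) for the mitochondrial ribosome, against 22.7% in both for the respiratory chain and 29.5% and 32.1% for the cytosolic ribosome. The highest main signal of the mitochondrial set, 151 at mrpl-28, was below the median of 177 over the cytosolic ribosomal genes with a peak. Later places in a run made up 42.3% of mitochondrial ribosome genes, 36.4% of respiratory genes and 10.3% of cytosolic ribosome genes; the part of this in the different shares was not tested. The cytosolic count was 20 when each summit counted for the nearest start alone and 19 among main peaks found in both own lists.

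**Figure D4:**
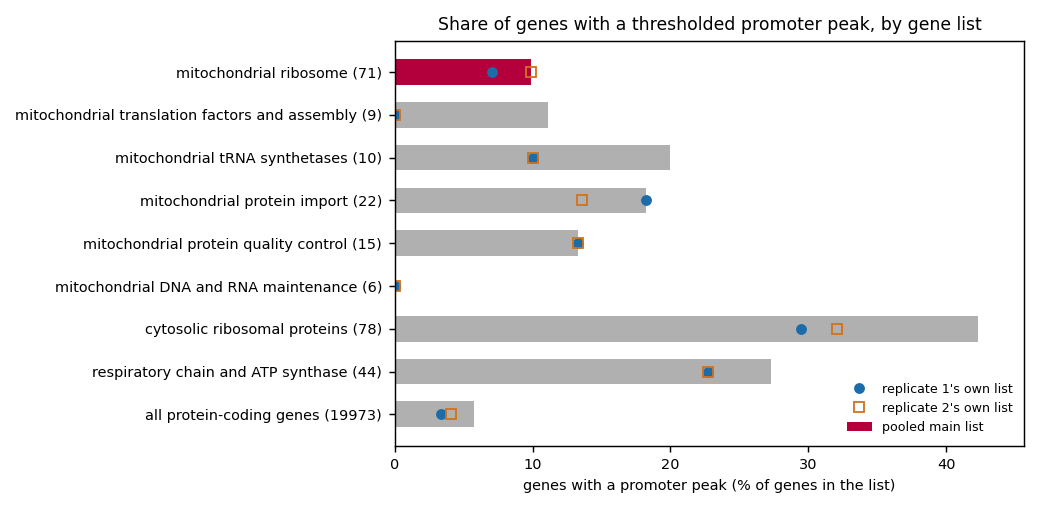
Share of genes with a thresholded promoter peak (horizontal axis, percent of the genes in the list) for each gene list, with the number of genes in brackets: bars show the pooled main list (red for the mitochondrial ribosome, grey for the others), filled circles replicate 1's own list and open squares replicate 2's own list. The mitochondrial ribosome bar at 9.86% lies between that of all protein-coding genes at 5.77% and those of the respiratory chain at 27.3% and the cytosolic ribosome at 42.3%.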

How the data were processed

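The data were peak lists from ChIP-seq of K11D2.4-eGFP in whole young adults, 1 group of 2 biological replicates, on ce11, from sonicated fragments of 200 to 800 bp, per the labels. Of 8 deposited lists 6 were used. The authors' signal (peak height) and the deposited score (at most 1000) were used as deposited, within a list; summit offsets, also deposited, gave the summits. Aligner, peak caller and read numbers: not given in the sources used here. Depth is therefore unknown. The deposited notes derive all lists from the alignments and 1 further file common to both replicates, so the replicates' peaks may share features of that file.

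Summits were assigned to Ensembl release 115 transcript starts of WBcel235, with symbols from RefSeq, and each gene took its highest signal. The percentile ranks a gene among all genes with a peak in that list. The assignment was tested on simulated data. Members, lists, the named genes (those with main peaks, the highest and lowest without one, those never listed, genes sharing a peak) and CGCAGA were chosen with earlier results of these data known; CGCAAAC and the B box were chosen after the sequences were seen. No test was made. Alternatives were the second list, each replicate alone, other windows, stricter peak sets and run gaps. Python 3.11.15, numpy 2.4.6, pandas 2.3.3 and matplotlib 3.10.9 were used.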

Additional observations from a re-analysis of the deposited data

How the results depend on the processing

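No paired analysis was possible because there is 1 group. The 7 members with a main peak became 4 (mrpl-12, mrpl-28, mrpl-45 and mrps-7) in both stricter sets. These were the 50% of main peaks with the highest signal (3.64% of all genes) and main peaks found in both own lists (2.64%). There were 5 members with replicate 1 alone (3.39% of all genes), in the narrower window given below (4.32%) and for the nearest start alone (4.4%). Replicate 2 alone gave 7 (4.07%). The second list (5.96%) and the window from 2000 bp (7.5%) gave 9, and any overlap of peak and window gave 10 (6.12%). A window 50 bp longer upstream, chosen after seeing the data, added mrps-28 and mrps-21, which made 9 (5.84%). With 1 replicate alone the median signal was 58.8 to 79.8, on another scale than 128. It was 96.4 in the second list and for the nearest start alone. The median offset of -175 bp was -253 bp in the second list, -167 bp in the narrower window (500 bp upstream to 100 bp downstream) and for the nearest start, -343 bp in the window from 2000 bp and in the one 50 bp longer, -255 bp in both stricter sets, and -351 to -343 bp in single replicates. Shared peaks went to 7 in the window from 2000 bp. The large-subunit count was 3 in the narrower window, for the nearest start and in both stricter sets, and 3 to 5 in single replicates. The small-subunit count was 1 in both stricter sets and 4 in the window from 2000 bp and in the one 50 bp longer and for any overlap. The median percentile was 46.0 (narrower) and 56.9 (2000 bp) in replicate 1, and 58.1 (narrower), 61.1 (2000 bp) and 60.4 (nearest peak) in replicate 2. Replicate 2 listed 26 members in the narrower window, against 31.5% of all genes. CGCAGA lay within 100 bp of 2 member summits (28.6%), against 20.9% of all main summits. With gaps of at most 200 bp, 4 of 22 later members (18.2%) had a first gene with a main peak, against 12.7% of all later genes, a smaller difference than with 500 bp. The median GC excess of 4.5 points was 10.5 to 12.0 in single replicates. The cause of each was not tested. Depth is unknown, so no limit on detection can be given.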

Other observations

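A main summit also lay inside the body of 1 member away from its promoter: mrpl-53, with a signal of 80.4 in a coding exon, 282 bp past the start. Replicate 2 alone had a ranked promoter peak at mrpl-53, with a signal of 19.4. At mrps-21 the nearest main summit (signal 155) lay 1014 bp upstream, in the promoter of F29B9.11, the first gene of its run and a cytochrome c oxidase subunit, while the ranked signals within the promoter of mrps-21 were 13.5 (replicate 1) and 20.2 (replicate 2).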
